A study of Rattus norvegicus with 8 samples.

Results

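The genes described here copy DNA and divide the cell, read in periodontal ligament (PDL), the fibrous tissue that ties a tooth root to its bone socket. They form a named list of 41 genes, 13 of DNA replication and 28 of mitosis. Members were matched by symbol, and the list was chosen with earlier results of these data known. All 13 replication genes and 26 of the 28 mitosis genes had a row in the count table, out of 17337 rows in all. The levels of Cenpe and Anln were not analysed here, and only their promoters are counted below. The 39 genes with a row all had enough reads to be tested, Mcm10 only through its P18 libraries.

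The samples were untreated rats (Rattus norvegicus) of 2 ages, with 4 animals at postnatal day 28 (P28) and 4 at postnatal day 18 (P18). Strain and sex were not stated in the labels. PDL of the cervical part of the root, near the crown, was cut out by laser micro-dissection, and libraries were made from its total RNA with the SMARTer Ultra Low kit, which suits very small inputs. The 2 ages stand on either side of the time at which opposing teeth come into contact, and the comparison asks what differs in the ligament across that step. Each library was taken as 1 animal.

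A dividing cell first loads ring-shaped MCM helicases onto its DNA, fires them in S phase and copies the strands with the help of the PCNA clamp and a supply of deoxynucleotides. It then condenses its chromosomes, attaches them to a spindle, clears a checkpoint and splits in cytokinesis. In mammalian cells the replication genes are mostly driven by E2F factors at the entry into S phase, and the mitosis genes by the MuvB complex with B-Myb and FoxM1 later in the cycle. The roles given below were established mainly in yeast, human and mouse cells. In the growing ligament, dividing fibroblast progenitors supply the cells that build the fibres.

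Total counts ran from 5252693 to 17803006 in the P28 libraries and from 10863769 to 26645656 in the P18 libraries. The shallowest, P28 replicate 4, also stood apart. Its correlations across genes with the other P28 libraries were 0.750 to 0.766, whereas each of these reached at least 0.822 with another library of its age. P18 replicate 1 stood apart in the same way, at 0.780 to 0.789, whereas each other P18 library reached at least 0.833 with another of its age. The limit behind a value of 0, taken as 3 counts, was between 0.108 and 0.624 CPM (counts per 1e6 counts, with library sizes scaled by TMM factors) depending on depth. Ligament matrix genes were abundant at both ages: Postn (periostin) lay between 13232 and 32206 CPM at P28 and between 14136 and 16127 CPM at P18. Of the 10 ligament markers, Aspn (asporin) had 0 counts in every P28 library and at most 0.0904 CPM at P18.

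A few promoters are shown with any matches to motifs known from replication and mitosis genes. RefSeq promoter windows (build GRCr8, 250 bases before to 50 after the annotated gene start) matched 10 of the 13 replication genes and 22 of the 28 mitosis genes. They were searched on both strands for E2F motifs (TTTCCCGC, TTTGGCGC, TTTCGCGC, TTCCCGCC or TTGGCGCC, some of which overlap one another), for the cell-cycle homology region that MuvB binds (CHR; TTTGAA or TTCGAA) and for the CCAAT box of NF-Y. The following lines give 3 replication and 3 mitosis promoters, 5′ to 3′, with every match in capitals.

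Mcm10 (chr17:78175137-78175436, plus strand): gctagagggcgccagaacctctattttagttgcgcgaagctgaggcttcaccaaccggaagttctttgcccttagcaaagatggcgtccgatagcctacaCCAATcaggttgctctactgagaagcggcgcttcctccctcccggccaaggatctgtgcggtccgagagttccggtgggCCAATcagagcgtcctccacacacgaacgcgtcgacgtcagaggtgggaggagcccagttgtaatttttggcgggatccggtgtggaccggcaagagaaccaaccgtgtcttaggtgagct
Mcm6 (chr13:42404303-42404602, minus strand): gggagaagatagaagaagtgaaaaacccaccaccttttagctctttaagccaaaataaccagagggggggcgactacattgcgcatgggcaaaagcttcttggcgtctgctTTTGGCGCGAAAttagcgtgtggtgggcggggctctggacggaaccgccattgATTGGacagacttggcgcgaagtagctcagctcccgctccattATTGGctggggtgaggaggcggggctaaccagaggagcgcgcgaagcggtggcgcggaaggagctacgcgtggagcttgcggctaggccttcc
Tyms (chr9:120776034-120776333, minus strand): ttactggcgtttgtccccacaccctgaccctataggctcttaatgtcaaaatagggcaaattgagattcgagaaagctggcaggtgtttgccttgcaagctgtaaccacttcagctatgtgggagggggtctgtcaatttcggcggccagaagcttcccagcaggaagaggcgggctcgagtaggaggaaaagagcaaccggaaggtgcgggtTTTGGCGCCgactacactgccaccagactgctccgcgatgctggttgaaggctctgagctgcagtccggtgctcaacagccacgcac
Cdk1 (chr20:19265043-19265342, plus strand): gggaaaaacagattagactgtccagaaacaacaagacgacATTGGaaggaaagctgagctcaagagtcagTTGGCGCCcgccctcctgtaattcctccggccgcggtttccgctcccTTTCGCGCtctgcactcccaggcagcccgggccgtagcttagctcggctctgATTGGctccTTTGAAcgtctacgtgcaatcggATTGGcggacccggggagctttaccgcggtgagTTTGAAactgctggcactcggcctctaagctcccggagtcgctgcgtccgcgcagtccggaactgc
Ccnb2 (chr8:79981609-79981908, minus strand): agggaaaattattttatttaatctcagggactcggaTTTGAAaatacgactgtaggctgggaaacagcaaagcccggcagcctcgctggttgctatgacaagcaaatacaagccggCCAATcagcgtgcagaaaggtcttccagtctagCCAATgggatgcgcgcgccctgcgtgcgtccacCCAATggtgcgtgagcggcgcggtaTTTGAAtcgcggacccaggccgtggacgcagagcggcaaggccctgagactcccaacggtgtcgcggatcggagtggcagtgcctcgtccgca
Cdc20 (chr5:137255750-137256049, minus strand): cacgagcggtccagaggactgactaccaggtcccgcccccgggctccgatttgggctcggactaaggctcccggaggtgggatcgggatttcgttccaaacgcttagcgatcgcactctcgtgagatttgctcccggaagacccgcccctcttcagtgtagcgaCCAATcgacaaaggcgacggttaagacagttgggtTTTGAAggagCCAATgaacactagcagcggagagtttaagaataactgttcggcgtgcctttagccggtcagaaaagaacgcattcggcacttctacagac

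Mcm10 is shown because it was the only member called, and its window holds a CCAAT box at -150 and another at -71 (first base, counted back from the annotated start) and neither of the other motifs. Mcm6 and Tyms are shown for their E2F matches, which lie at -139 and -135 in Mcm6 and at -37 and -36 in Tyms, overlapping in both. Cdk1 carries all 3 motifs, with CHR at -72 and -16 and E2F at -180 and -133. Ccnb2 is shown for its row of CCAAT boxes at -134, -101 and -68, each 33 bases from the next, followed by a CHR at -43. In Cdc20 a CHR at -51 lies between CCAAT boxes at -86 and -41.

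An E2F motif was present in 6 of 10 replication promoters (60%) and 2 of 22 mitosis promoters (9.09%), against 3.67% of all 33469 promoter windows. The CHR was found in 15 of 22 mitosis promoters (68.2%) and in 2 of 10 replication promoters (20%), against 19.7% of all windows. CCAAT boxes were present in 16 mitosis promoters (72.7%) and 6 replication promoters (60%), against 37.5% of all. Of the 21 CHR matches in mitosis promoters, 17 lay within 100 bases of the annotated start, whereas none of the 3 in replication promoters did. In wider lists of other genes of each process, E2F motifs were in 50.7% of 71 replication promoters and 12.8% of 94 mitosis promoters, and the CHR was in 19.7% and 60.6% of them. Aurka, Bub1, Ccne1, Melk and Tk1 held no match. A match describes the letters in this window and does not show binding.

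**Figure D1:**
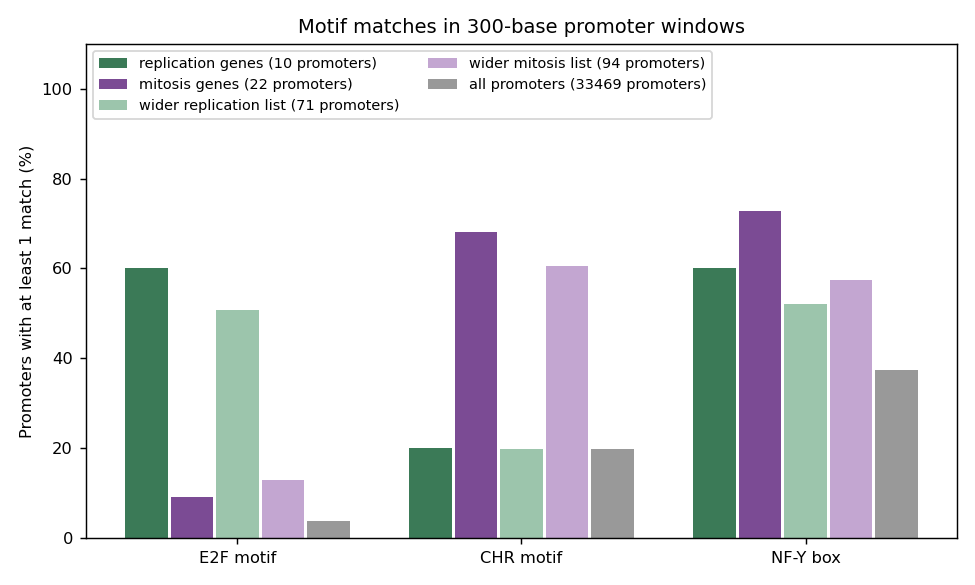
Share of promoter windows (%, vertical axis) with at least 1 match to the E2F motif, the CHR or the NF-Y box, for replication genes, mitosis genes, a wider list of each and all promoters. E2F matches stand out in replication genes (60%, against 3.67% of all promoters) and CHR matches in mitosis genes (68.2%, against 19.7%).

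Every replication gene had a fitted level lower at P28 than at P18, while those of mitosis genes went both ways. All 13 replication genes had a log2 fold change (P28 over P18) below 0, as did 17 of 26 mitosis genes (65.4%) and 49.7% of all 10472 genes tested. Their median was -0.87 for replication and -0.22 for mitosis, beside 0.01 for all genes tested. Single genes seldom passed the test, the quasi-likelihood test of edgeR with Benjamini-Hochberg adjustment over all genes (called at an adjusted p under 0.05, 4 animals per age). It called 1 replication gene lower, Mcm10, and 0 higher, beside 0.936% of all genes called, 0.42% lower and 0.516% higher. No mitosis gene was called by edgeR or by limma with voom weights, and the Wald test of DESeq2 called 2 lower, Ccna2 and Racgap1, and 0 higher. DESeq2 made more calls throughout, 2.5% of all genes lower and 2.77% higher, and voom called 1.26% lower and 1.67% higher.

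At an unadjusted edgeR p under 0.05, 4 of 13 replication genes and 6 of 26 mitosis genes were lower and 0 higher, where 7.1% of all genes were lower and 7.45% higher. All P28 libraries lay below all P18 libraries for 5 replication genes (Mcm2, Mcm10, Rrm2, Tyms and Ccne1) and 4 mitosis genes (Ccna2, Aurka, Bub1 and Racgap1). That held for 5.54% of all genes tested. The reverse order was found for 1 mitosis gene, Birc5, and 4.91% of all genes. Of the 15 alternative settings, each left 12 or 13 of the 13 replication genes below 0 and 14 to 17 of the 26 mitosis genes. Without P28 replicate 4, the P28 library that stood apart, the counts were 13 and 16, with medians of -0.93 and -0.23. Without P18 replicate 1, the P18 library that stood apart, they were 13 and 17, with medians of -0.94 and -0.37. In bulk RNA, fewer dividing cells and less RNA per dividing cell cannot be told apart.

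**Figure D2:**
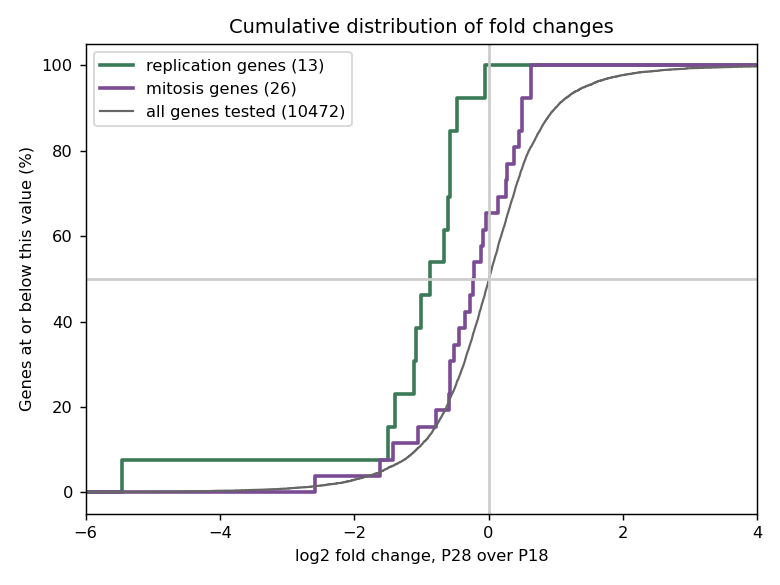
Cumulative share of genes (%, vertical axis) by log2 fold change, P28 over P18 (horizontal axis), for 13 replication genes, 26 mitosis genes and all 10472 genes tested. The replication curve reaches 100% before 0 with its median at -0.87; the mitosis curve has its median at -0.22 and crosses 0 at 65.4%.

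Mcm10, which helps to activate the loaded MCM helicase, was the only member called, at a lower level at P28. Its levels were 0.352, 0.313, 0.489 and 0.208 CPM in P28 replicates 1 to 4, against 19.3, 16.97, 24 and 2.14 CPM in P18 replicates 1 to 4. The P28 values stand for 6, 3, 6 and 1 counts, so each rests on few reads. All are under 10, the minimum count of the expression filter, so Mcm10 entered the test only through its P18 libraries. P18 replicate 4, at 42 counts, lay well under the other P18 libraries but above all of P28. The log2 fold change was -5.45 ± 1.08 (SE; edgeR adjusted p = 0.0401). The call held without P28 replicate 4 or P18 replicate 4 but ended without P28 replicates 1, 2 or 3 (adjusted p = 0.123, 0.0612 and 0.0901) and without P18 replicates 1, 2 or 3 (0.0780, 0.133 and 0.144). It also ended with voom and quality weights (adjusted p = 0.167) and with the replicate number as a block (0.125).

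The MCM2-7 subunits form the hexameric ring that unwinds the DNA. Their summed level was 279, 259, 82.9 and 233 CPM in P28 replicates 1 to 4, against 253, 505, 304 and 361 CPM in P18 replicates 1 to 4. The groups overlapped, since P28 replicates 1 and 2 lay above P18 replicate 1. Mcm2, a ring subunit that also holds histones, had 48.7, 40.6, 6.03 and 35.4 CPM in P28 replicates 1 to 4, against 74.5, 146, 64.3 and 84.4 CPM in P18 replicates 1 to 4 (log2 fold change -1.50 ± 0.51, edgeR adjusted p = 0.191). P28 replicate 3 was far below the other P28 libraries, and no P28 library reached any P18 library. Mcm6 had 33, 51.6, 6.93 and 8.53 CPM at P28 and 25.1, 85.8, 67.4 and 84.7 CPM at P18 (log2 fold change -1.39 ± 0.62, adjusted p = 0.324). P28 replicates 3 and 4 were the lowest, while P28 replicates 1 and 2 lay above P18 replicate 1.

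The other ring subunits did not separate by age. Mcm4 ranged from 3.74 to 20.4 CPM at P28 and from 13.9 to 47.9 CPM at P18, a log2 fold change of -1.08 ± 0.58 that was not called. For Mcm5 the ranges were 3.59 to 37.4 CPM at P28 and 20.7 to 41.4 CPM at P18 (-0.57 ± 0.62). Mcm3 rested on 1 library: it ranged from 12.97 to 28.1 CPM at P28 and from 10.6 to 75.4 CPM at P18, and its log2 fold change of -0.66 ± 0.63 became 0.38 without P18 replicate 2. Mcm7, which hosts a microRNA cluster in an intron in human and mouse, ranged from 34.98 to 155 CPM at P28 and from 83.4 to 137 CPM at P18. Its log2 fold change of -0.06 ± 0.39 was the nearest to 0 of the 13 and turned positive without P28 replicate 2, P28 replicate 3 or P18 replicate 4 (0.04, 0.23 and 0.08).

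Pcna, the sliding clamp that keeps polymerases on the template, had 73.2, 97.1, 54.9 and 122 CPM in P28 replicates 1 to 4, against 173, 143, 112 and 99.7 CPM in P18 replicates 1 to 4. The groups overlapped through P28 replicate 4, and the log2 fold change was -0.61 ± 0.28 (edgeR adjusted p = 0.352).

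The 3 genes that supply deoxynucleotides all had fold changes below 0. Tyms (thymidylate synthase) had 7.28, 26.1, 14.03 and 24.97 CPM in P28 replicates 1 to 4 and 34.6, 50.7, 40.9 and 30.2 CPM in P18 replicates 1 to 4 (log2 fold change -1.12 ± 0.47, edgeR adjusted p = 0.297). All P28 libraries were below all P18 libraries, with P28 replicates 1 and 3 lowest. Rrm2, the S phase subunit of ribonucleotide reductase, had 4.76, 3.13, 7.26 and 7.70 CPM at P28 and 10.03, 15.9, 11.1 and 8.86 CPM at P18 (-1.01 ± 0.75, adjusted p = 0.591), again without overlap. Tk1 (thymidine kinase) had 51.7, 50.97, 106 and 148 CPM at P28 and 143, 139.9, 109 and 139 CPM at P18 (-0.58 ± 0.33, adjusted p = 0.466). P28 replicates 1 and 2 lay far under every P18 library, and P28 replicate 4 lay above them all.

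Cyclin E drives CDK2 at the entry into S phase. Ccne1 had 5.46, 12.7, 12.2 and 17.3 CPM in P28 replicates 1 to 4, against 19.4, 26.7, 18.6 and 22.2 CPM in P18 replicates 1 to 4 (log2 fold change -0.87 ± 0.54, edgeR adjusted p = 0.506). No P28 library reached any P18 library, though P28 replicate 4 came close. Ccne2 had 25.3, 26.01, 20.4 and 9.57 CPM at P28 and 34.5, 39.4, 15.97 and 23.3 CPM at P18 (-0.47 ± 0.48, adjusted p = 0.707), and its groups overlapped.

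**Figure D3:**
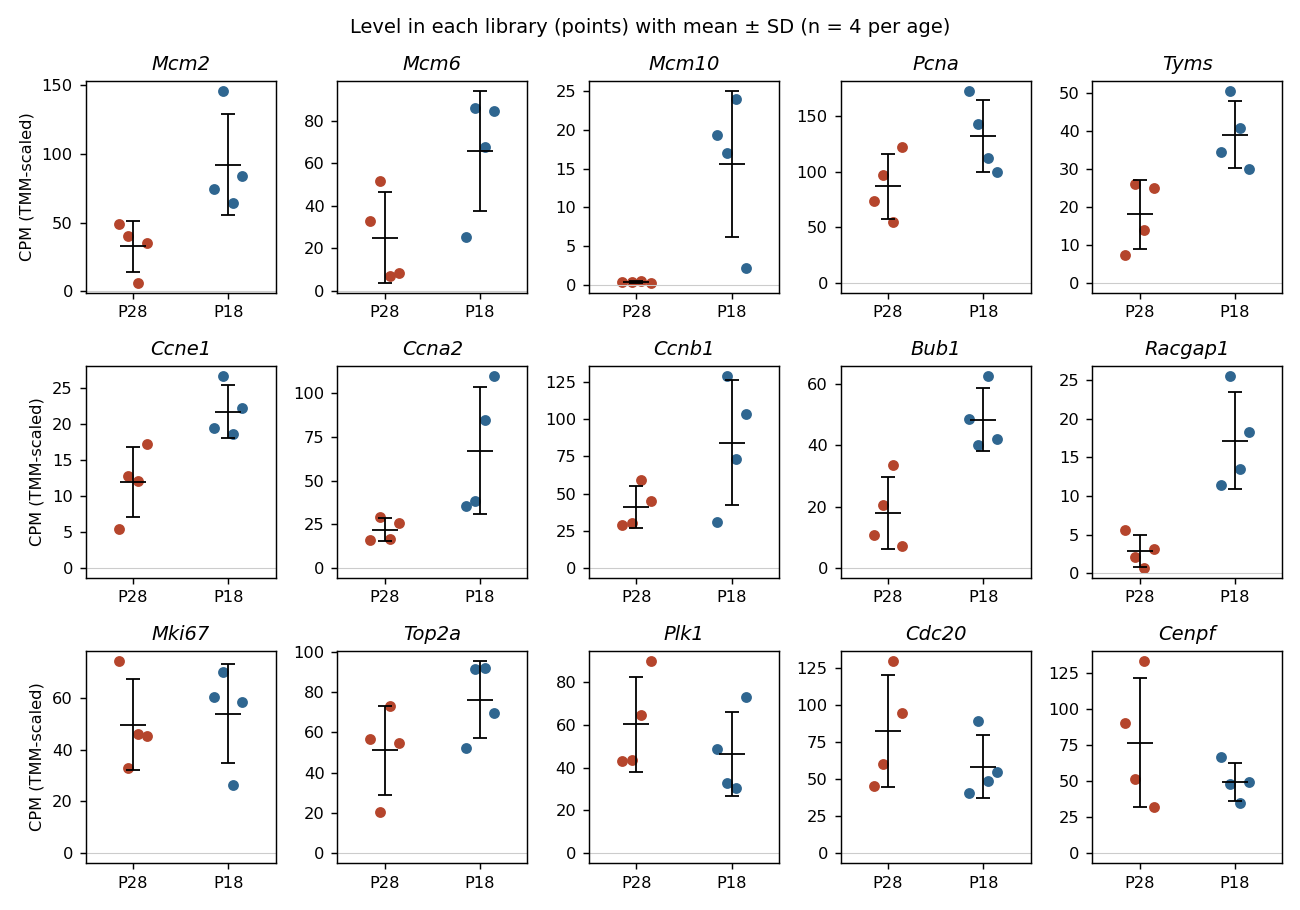
Level (TMM-scaled CPM, vertical axis, linear and different for each gene) of 15 members in each P28 and P18 library (points, replicates 1 to 4 from left to right), with mean ± SD (n = 4 per age). Mcm10 stays at or below 0.489 CPM at P28, and all P28 libraries lie below all P18 libraries for Mcm2, Mcm10, Tyms, Ccne1, Ccna2, Bub1 and Racgap1, whereas Mki67, Plk1, Cdc20 and Cenpf overlap between ages.

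Among mitosis genes, the 5 that form or induce the CDK1 complex all had fold changes below 0, and none was called by edgeR. Ccna2, the cyclin of S phase and early mitosis, had 15.9, 29.2, 16.7 and 26.01 CPM in P28 replicates 1 to 4, against 35.6, 38.1, 84.6 and 109.8 CPM in P18 replicates 1 to 4. The groups did not overlap, with P18 replicates 3 and 4 highest, and the log2 fold change was -1.61 ± 0.43 (edgeR adjusted p = 0.103, DESeq2 adjusted p = 0.0158). Ccnb1, a cyclin of mitotic entry, had 28.8, 30.3, 59.04 and 45.1 CPM at P28 and 31.3, 129, 73.01 and 103 CPM at P18 (-1.05 ± 0.41, edgeR adjusted p = 0.261), where P18 replicate 1 lay among the P28 libraries. Cdk1, the kinase itself, had 74.4, 47.1, 91.7 and 48.7 CPM at P28 and 95.6, 98.7, 90.6 and 109.9 CPM at P18 (-0.59 ± 0.27, adjusted p = 0.333). The groups overlapped. Ccnb2 and the transcription factor gene Foxm1 overlapped broadly, at log2 fold changes of -0.28 ± 0.52 and -0.58 ± 0.60.

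Mitotic kinases were mixed. Aurka, the Aurora kinase of centrosomes and spindle poles, had 21.1, 21.7, 21.6 and 24.6 CPM in P28 replicates 1 to 4, against 39.95, 33.97, 36.1 and 43.1 CPM in P18 replicates 1 to 4 (log2 fold change -0.78 ± 0.35, edgeR adjusted p = 0.319). The groups did not overlap, and the P28 libraries lay close together. Aurkb, the kinase of the chromosomal passenger complex, had 59.1, 41.4, 39.1 and 54.7 CPM at P28 and 43.7, 58.6, 50.9 and 111 CPM at P18 (-0.44 ± 0.34, adjusted p = 0.601), with P18 replicate 4 well above all others. Plk1, a kinase that acts from mitotic entry to cytokinesis, had 43.05, 43.5, 64.4 and 89.9 CPM at P28 and 48.6, 32.7, 30.7 and 73 CPM at P18 (0.38 ± 0.37, adjusted p = 0.693), with P28 replicate 4 highest. Melk ranged from 6.79 to 44.1 CPM at P28 and from 22.03 to 42.9 CPM at P18 (-0.51 ± 0.53).

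Among chromosome structure and passenger genes, Mki67 and Top2a overlapped between ages and Birc5 did not. Mki67, which encodes the Ki-67 protein that coats mitotic chromosomes, had 74.2, 32.8, 46.2 and 45.1 CPM in P28 replicates 1 to 4, against 60.3, 70.1, 26.3 and 58.4 CPM in P18 replicates 1 to 4. Its highest value was in P28 and its lowest in P18, and the log2 fold change was -0.12 ± 0.37 (edgeR adjusted p = 0.926), turning positive without P28 replicate 2 or P18 replicate 2 (0.04 and 0.03) and with voom weights (0.04). Top2a, the topoisomerase that untangles sister chromatids, had 56.6, 20.5, 73.1 and 54.9 CPM at P28 and 52.2, 91.5, 91.97 and 69.8 CPM at P18 (-0.58 ± 0.37, adjusted p = 0.518), with P28 replicate 2 lowest. Birc5 (survivin), a passenger complex subunit, had 36.8, 37.5, 50.6 and 49.1 CPM at P28 and 27.7, 36.6, 31.9 and 26.8 CPM at P18 (0.50 ± 0.32, adjusted p = 0.520). Every P28 library lay above every P18 library, the nearest 2 by a small margin.

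Kinetochore and checkpoint genes went in opposite directions without a call. Bub1, a checkpoint kinase at the kinetochore, had 10.6, 20.5, 33.5 and 7.07 CPM in P28 replicates 1 to 4, against 48.6, 39.99, 62.6 and 41.9 CPM in P18 replicates 1 to 4 (log2 fold change -1.42 ± 0.49, edgeR adjusted p = 0.189). The groups did not overlap, and P28 replicate 4 was lowest. Bub1b, which encodes the checkpoint protein BubR1, had 53.97, 24.02, 47.4 and 0.416 CPM at P28 and 30.6, 13.9, 7.04 and 29.8 CPM at P18 (0.63 ± 0.89, adjusted p = 0.801). P28 replicate 4, with 2 counts, was the lowest of all libraries, while P28 replicates 1 and 3 were the highest. Cenpf, a kinetochore protein of late G2 and mitosis, had 90.3, 51.4, 134 and 32.2 CPM at P28 and 66.98, 48.02, 34.97 and 49.3 CPM at P18 (0.63 ± 0.41, adjusted p = 0.520), with the same P28 libraries at the top and bottom. Ndc80, a microtubule-binding subunit, ranged from 8.48 to 19.9 CPM at P28 and from 8.43 to 19.1 CPM at P18 (-0.23 ± 0.61).

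Both partners of the anaphase-promoting complex (APC/C), the ligase that ends mitosis, had fold changes above 0. Cdc20, its activator, had 45.5, 60.5, 129.8 and 94.7 CPM in P28 replicates 1 to 4, against 40.5, 89.1, 48.8 and 55.2 CPM in P18 replicates 1 to 4 (log2 fold change 0.50 ± 0.36, edgeR adjusted p = 0.576). Ube2c, its ubiquitin-conjugating enzyme, had 91.9, 45.2, 65.8 and 72.2 CPM at P28 and 51.2, 80.2, 49.4 and 69.1 CPM at P18 (0.14 ± 0.29, adjusted p = 0.875). The groups overlapped for both, and the fold change of Ube2c turned negative without P28 replicate 1 (-0.03).

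No spindle gene separated the ages. Kif11, the kinesin that pushes spindle poles apart, had 43.8, 13.1, 23.2 and 18.7 CPM in P28 replicates 1 to 4, against 17.2, 16.97, 32.7 and 15.7 CPM in P18 replicates 1 to 4 (log2 fold change 0.26 ± 0.51, and -0.17 without P28 replicate 1). Tpx2, which activates Aurora A on the spindle, had 67.1, 36.6, 66.1 and 44.7 CPM at P28 and 40.2, 55.9, 38.8 and 21.6 CPM at P18 (0.46 ± 0.36). Hmmr, a spindle-assembly factor also known as a hyaluronan receptor, had 36.6, 15.04, 24.2 and 24.6 CPM at P28 and 9.67, 34.7, 15.9 and 56 CPM at P18 (-0.21 ± 0.56). For these 3 genes the groups overlapped (edgeR adjusted p = 0.865, 0.617 and 0.906). Nusap1, which bundles spindle microtubules, ranged from 31.8 to 49.7 CPM at P28 and from 6.69 to 64.4 CPM at P18 (-0.03 ± 0.53).

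In the central spindle and cytokinesis group, Racgap1 was the only one of 4 measured genes whose libraries did not overlap between ages. Racgap1, a subunit of centralspindlin, had 5.58, 2.09, 0.652 and 3.12 CPM in P28 replicates 1 to 4, against 11.4, 25.5, 13.5 and 18.2 CPM in P18 replicates 1 to 4. The P28 values rest on 95, 20, 8 and 15 counts, and the log2 fold change was -2.58 ± 0.84 (edgeR adjusted p = 0.171, DESeq2 adjusted p = 0.0203). Kif23, the kinesin that partners Racgap1 in the same complex, had 54.2, 37.1, 45.5 and 77.4 CPM at P28 and 43.8, 66.97, 18.7 and 48.1 CPM at P18 (0.27 ± 0.40, edgeR adjusted p = 0.812), so that these 2 partners had fold changes of opposite sign. Whether they differ from each other was not tested. Prc1, which cross-links the central spindle, had 68.3, 82.3, 58.4 and 54.9 CPM at P28 and 61.4, 80.4, 89.2 and 107 CPM at P18 (-0.36 ± 0.26, adjusted p = 0.572), with overlap. Kif20a ranged from 35.6 to 80.5 CPM at P28 and from 29.2 to 99.9 CPM at P18 (-0.08 ± 0.43).

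**Figure D4:**
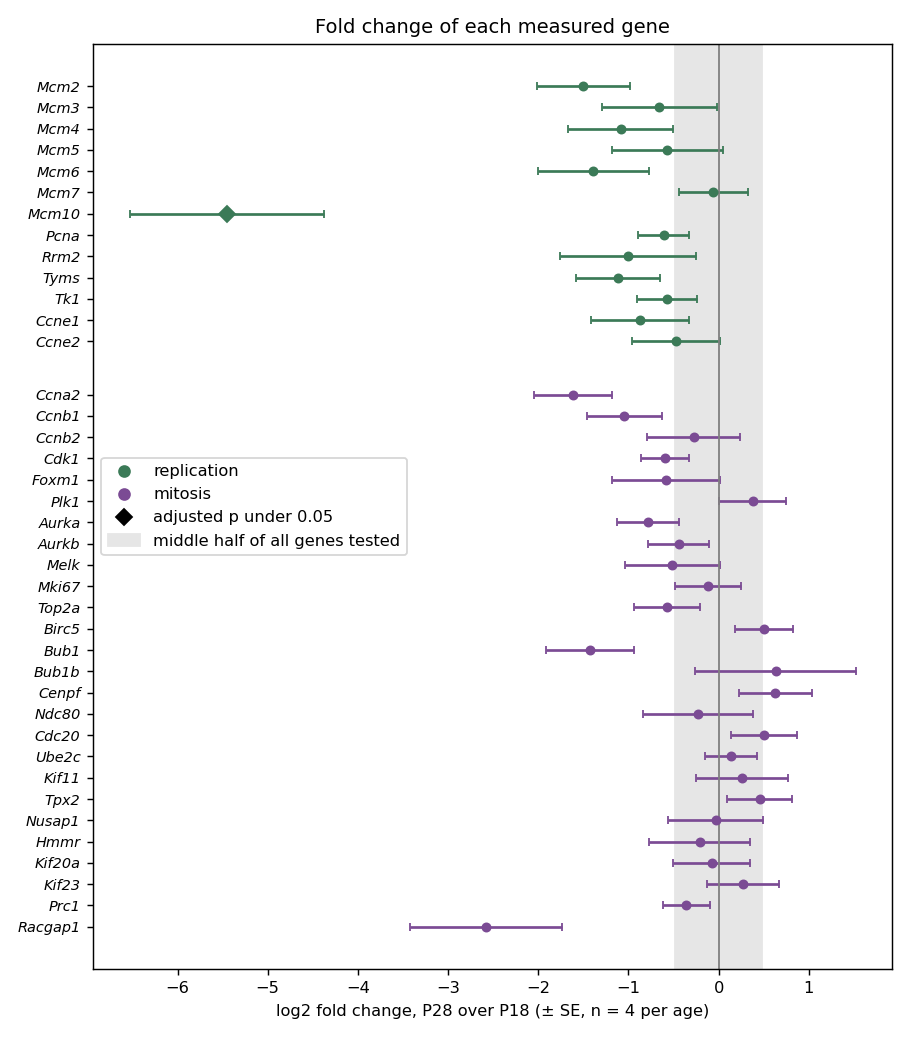
Log2 fold change, P28 over P18 (horizontal axis, ± SE, n = 4 per age), of the 13 replication and 26 mitosis genes; the grey band spans the lower to the upper quartile of all genes tested (-0.49 to 0.48). Every replication point lies left of 0, Mcm10 (diamond, the only called gene) farthest at -5.45, and mitosis points lie on both sides.

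Libraries of 1 age did not hold a fixed order across both groups of genes. The summed level of the replication genes was 447, 476, 298 and 563 CPM in P28 replicates 1 to 4, against 687, 937, 636 and 686 CPM in P18 replicates 1 to 4, without overlap. For the mitosis genes the sums were 1139, 823, 1287 and 1082 CPM at P28 and 1003, 1361, 1151 and 1448 CPM at P18, and they overlapped. P18 replicate 2 held the highest value of all 8 libraries for 8 of 13 replication genes, and P28 replicate 3 the lowest for 5. That same P28 replicate 3 had the highest mitosis sum of its age. P28 replicate 2 had the lowest mitosis sum and the lowest value for 6 of 26 mitosis genes, and P18 replicate 4 the highest for 7. The median coefficient of variation of replication genes was 49.9% at P28 and 32.7% at P18, and it was higher at P28 in 10 of 13 genes. That of mitosis genes was 36.0% at P28 and 36.5% at P18 (higher at P28 in 13 of 26).

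**Figure D5:**
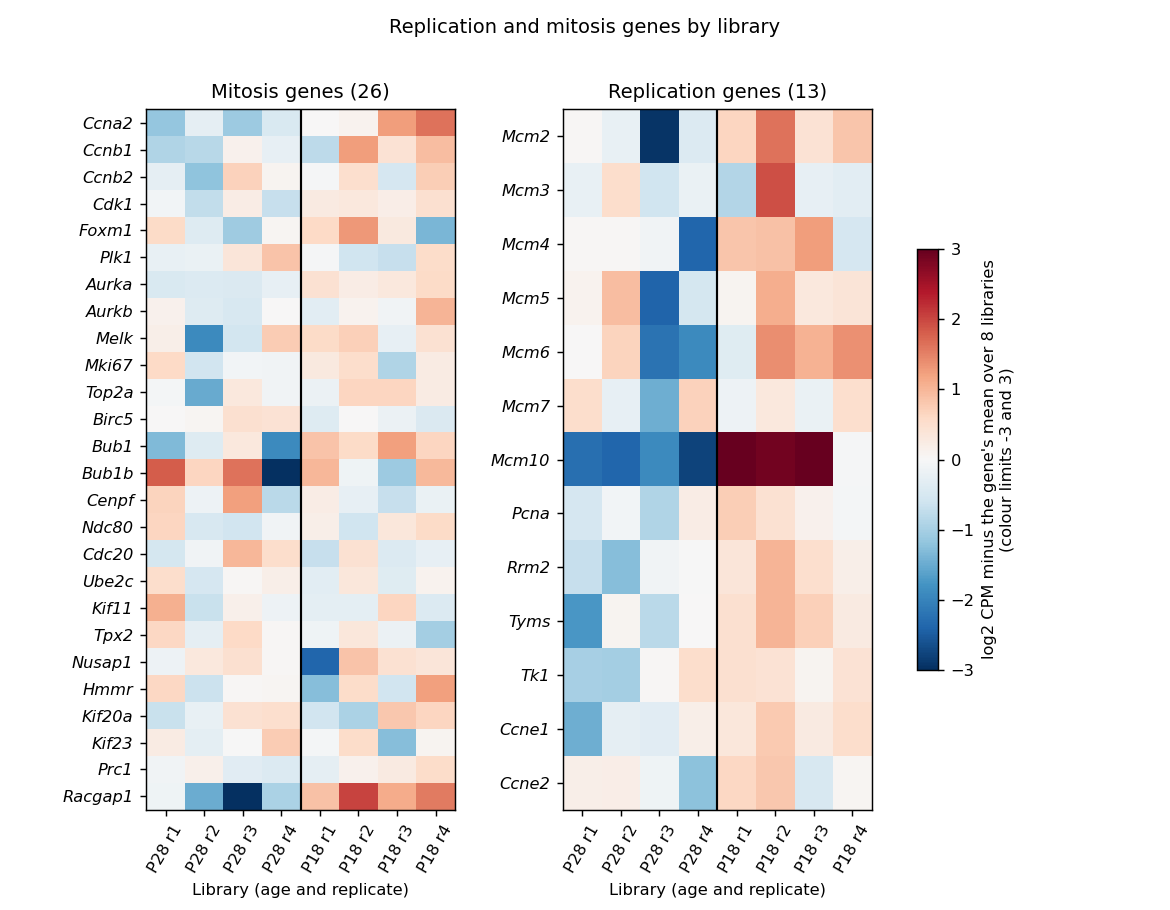
Log2 CPM of each gene minus its mean over the 8 libraries (colour, limits -3 and 3), for 26 mitosis genes and 13 replication genes; columns are P28 replicates 1 to 4, then P18 replicates 1 to 4. The replication panel is mostly blue at P28 and red at P18, darkest for Mcm10, while the mitosis panel is mixed, with Ccna2, Aurka, Bub1 and Racgap1 lower in all P28 columns than in any P18 column.

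Other genes of the same processes were read from wider lists of the pathway. Of 76 listed wider replication genes 69 were tested, and 50 (72.5%) had a fold change below 0, with a median of -0.32. edgeR called 0 of them. At an unadjusted p under 0.05, 5 were lower, a share close to the 7.1% of all genes, and 1 was higher, against 7.45% of all genes. DESeq2 called 2 lower (Gmnn and Rpa1; 2.5% of all genes) and 1 higher (Rnaseh2a; 2.77%), and voom called Rpa1 lower (1.26%). Origin licensing and firing genes were below 0 in 16 of 18 (median -0.60), and polymerases and fork proteins in 17 of 28 (median -0.19). Rpa1, the large subunit of the single-strand binding complex, had 1.35, 21.4, 4.00 and 3.54 CPM in P28 replicates 1 to 4, against 74.8, 70.6, 41.6 and 36.3 CPM in P18 replicates 1 to 4 (log2 fold change -2.88 ± 0.75, edgeR adjusted p = 0.0958). Rnaseh2a, which removes RNA from DNA, had 90.5, 77.8, 153 and 81.8 CPM at P28 and 40.04, 62, 55.9 and 23.98 CPM at P18 (1.15 ± 0.34, adjusted p = 0.140). Rpa1 was lower and Rnaseh2a higher in every P28 library than in any P18 library. Of the 69 genes, 3 had all P28 libraries below all P18 libraries and 1 the reverse, beside 5.54% and 4.91% of all genes.

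Of 106 listed wider mitosis genes 90 were tested, and 57 (63.3%) had a fold change below 0, with a median of -0.24. edgeR called 2 lower and 0 higher, where 0.42% of all genes were called lower and 0.516% higher. DESeq2 and voom called Anapc5 lower as well, where they called 2.5% and 1.26% of all genes lower. At an unadjusted p under 0.05, 7 were lower and 2 higher, beside 7.1% and 7.45% of all genes. Of the 90 genes, 3 had all P28 libraries below all P18 libraries and 1 the reverse, beside 5.54% and 4.91% of all genes. Both called genes encode subunits of the APC/C, whose partners Cdc20 and Ube2c were not called. The 13 tested core subunits, grouped after their values were seen, did not all go 1 way: 10 had fold changes below 0 and 3 above 0, namely Anapc11 (0.13 ± 0.21), Anapc13 (0.60 ± 0.24, edgeR adjusted p = 0.264) and Anapc15 (0.38 ± 0.32). Cdc16 fell to 143, 99.3, 104 and 113 CPM in P28 replicates 1 to 4, against 257, 227, 289 and 249 CPM in P18 replicates 1 to 4 (log2 fold change -1.15 ± 0.19, edgeR adjusted p = 0.0217). Cdc26 fell to 59.4, 51.8, 35.9 and 35.99 CPM at P28, against 133, 123, 124 and 107 CPM at P18 (-1.41 ± 0.25, adjusted p = 0.0264). For both genes the ages were apart in every library. The complex also acts outside mitosis. The call of Cdc16 ended without P28 replicate 3 or P18 replicates 2, 3 or 4 (adjusted p up to 0.0856). That of Cdc26 ended without P28 replicates 1 or 3 or any 1 of the P18 replicates (up to 0.0979), and both ended with the replicate block (0.0659 and 0.0660).

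Among the factors that govern these genes, 19 of E2F, DREAM, MuvB and the p53 arm were tested, with a median log2 fold change of 0.04. edgeR called 1 of them higher and 0 lower, beside 0.516% and 0.42% of all genes. The only one called was Cdkn1a, which encodes the CDK inhibitor p21 and rose to 91.5, 72.7, 77.1 and 71.4 CPM in P28 replicates 1 to 4, against 26.5, 9.87, 15.8 and 9.62 CPM in P18 replicates 1 to 4 (log2 fold change 2.34 ± 0.38, edgeR adjusted p = 0.0204). Leaving out P28 replicate 1 or 3, or P18 replicate 2, 3 or 4, ended that call, at adjusted p values of 0.0570 to 0.0857.

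The captures could also hold other cells, some of which divide, and marker levels of several types differed between ages. Of all genes tested, 49.7% had fold changes below 0, and edgeR called 0.42% lower and 0.516% higher. All 8 tested erythroid genes had fold changes below 0, with 1 called (Klf1), and their summed level ran from 601 to 4059 CPM at P28 and from 2432 to 8105 CPM at P18. Klf1, a transcription factor of red-cell precursors, had 0.529, 0.209, 0.815 and 0.208 CPM in P28 replicates 1 to 4, against 8.59, 30.3, 8.28 and 11.8 CPM in P18 replicates 1 to 4. Of 8 tested neutrophil genes 7 were below 0 and none was called (25.4 to 299 CPM at P28 and 36.9 to 954 CPM at P18), and Ltf had 0 counts throughout. Lymphocyte genes summed to 14.6 to 77.6 CPM at P28 and 27.5 to 139 CPM at P18. All 4 tested enamel organ genes were below 0, with 2 called (5.62 to 638 CPM at P28 and 15.1 to 4858 CPM at P18). In the other direction, all 6 tested epithelial genes (60.8 to 5505 CPM at P28, 24.0 to 576 CPM at P18) and all 4 tested osteoclast genes (1024 to 7813 CPM at P28, 1451 to 1707 CPM at P18) were above 0, with 0 and 1 called. Of 7 osteoblast genes, 4 were above 0 and 1 was called higher (5096 to 10277 CPM at P28, 3804 to 5865 CPM at P18). None of 7 macrophage genes (6 above 0), 6 endothelial genes (2 above 0) and 2 tested lymphocyte genes (1 above 0) was called. The ligament markers themselves summed to 138264 to 196400 CPM at P28 and 96320 to 137599 CPM at P18, with 8 of 9 tested genes above 0 and 1 called in each direction. Fmod (fibromodulin) was called higher, at a log2 fold change of 2.97 ± 0.52, and Tnmd (tenomodulin), the gene below 0, was called lower. Tnmd had 125, 51.1, 133 and 106 CPM in P28 replicates 1 to 4, against 734, 479, 487 and 540.2 CPM in P18 replicates 1 to 4 (log2 fold change -2.43 ± 0.29, edgeR adjusted p = 0.00608).

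Some libraries were at an extreme for both these markers and the replication or mitosis genes, as picked after the values were seen. P18 replicate 2, with the highest replication sum, had the highest neutrophil (954 CPM) and lymphocyte (139 CPM) sums and the highest Klf1. P18 replicate 4, with the highest mitosis sum, had the highest erythroid sum (8105 CPM). P28 replicate 3, with the lowest replication sum, had the highest osteoclast sum (7813 CPM). P28 replicate 2, with the lowest mitosis sum, had the lowest erythroid (601 CPM) and highest epithelial (5505 CPM) sums. By contrast, P18 replicate 1, with the highest enamel organ sum (4858 CPM), had neither the highest nor the lowest replication or mitosis sum of all libraries. The part of these cells in the results was not tested.

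Some members may share reads with other genes. In the RefSeq gene table (GRCr8), 13 of the 39 genes overlap another annotated gene, such as Kif20a with Cdc23 and Plk1 with Ern2. For 7 of them the overlapping gene has a row in the count table. A copy or pseudogene under their own name is annotated for 15, among them Pcna, Mcm7, Cdk1 and Ube2c. These 15 also include Mcm2, Rrm2 and Aurka, whose P28 libraries all lay below their P18 libraries. How the counting treated strand and reads with several matches is not known from the labels. The values of all genes with such an overlap or copy are uncertain to that extent.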

How the data were processed

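RNA was measured in 8 rat cervical PDL libraries, 4 of P28 and 4 of P18 animals. The authors deposited raw counts per gene symbol for 17337 genes; STAR 2.5.3a, HTSeq 0.9.1, edgeR 3.16.5 and the build rn6 are named in the submitters' processing notes, without their roles. The table's 40 columns of other samples were not used in any step. Annotation, strand setting and filters were not stated there.

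Differences were tested on TMM-scaled counts in R 4.3.3 by edgeR 4.0.16, quasi-likelihood F test (2-sided, age as the only term, expression filter with a minimum count of 10, 10472 genes tested), with Benjamini-Hochberg adjustment at 0.05. Standard errors were derived from the F statistic (absolute log2 fold change over its square root). Log2 CPM used a prior count of 2. Alternatives were other scalings and filters, DESeq2 1.42.0, limma 3.58.1 with voom, the replicate number as a block and leaving out each library. The steps were tested on simulated data with large changes planted in well-expressed genes. That simulation does not cover changes as small as those of most members. P-values set the difference between ages against the spread between libraries of the same age, among these 8 libraries only. Limits from counts (3 for a count of 0) cover counting error only, and copied reads are not independent molecules.

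Full values are given for members called, the 3 members of each role with the lowest p, those with a fold change above 0, and Mki67, Top2a, Cdk1, Ccnb1, Pcna, Mcm2 and Mcm10; the others are given by range. From each wider list, called genes or else the 2 with the lowest p are named; marker genes, other APC/C subunits and genes called by another tool were named after their values were seen. The members and lists were chosen with earlier results of these data known. Promoter sequences are from RefSeq (GRCr8) and were matched by symbol; coordinates on rn6 were not used.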

Additional observations from a re-analysis of the deposited data

Results flagged for a closer look

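A total of 6 values lay far from the other 3 libraries of their age, with a gap to the nearest one that passed Dixon's 95% limit as a share of the group's whole range in log2 CPM. With 78 groups looked at, chance alone flags about 1 in 20. Mcm2 was low in P28 replicate 3, at 6.03 CPM with the others at 35.4 to 48.7 CPM (gap 0.846 of the range). Mcm4 was low in P28 replicate 4, at 3.74 CPM (18 counts) with the others at 18.4 to 20.4 CPM (0.940). Mcm10 was low in P18 replicate 4, at 2.14 CPM with the others at 17.0 to 24.0 CPM (0.854). Tk1 was low in P18 replicate 3, at 109 CPM with the others at 139 to 143 CPM (0.897). Kif11 was high in P18 replicate 3, at 32.7 CPM with the others at 15.7 to 17.2 CPM (0.881). Nusap1 was low in P18 replicate 1, at 6.69 CPM (74 counts) with the others at 45.8 to 64.4 CPM (0.849).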

How the results depend on the processing

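Over 15 alternatives, the median log2 fold change of the replication genes ran from -0.98 to -0.63 and that of the mitosis genes from -0.37 to -0.05. edgeR's count of 54 higher and 44 lower genes became 290 and 262 with DESeq2 and 175 and 132 with voom. With the replicate number as a block it became 16 and 10. Subject numbers repeat across ages, but same-numbered animals did not deviate together (r = -0.0196 to 0.00189 for the 4 pairs). No library correlated best with the library of its own number at the other age. These values cannot show whether same-numbered animals share anything beyond the number, such as a batch, and this was not tested. Leaving out 1 library gave 4 to 110 higher and 5 to 105 lower genes (without P18 replicate 2 the lowest of both, without P28 replicate 4 the highest).

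The 1 replication gene called lower became 0 with voom and with the block, and 0 to 1 leaving out 1 library. Mitosis genes called lower were 2 with DESeq2 and 0 in the 8 fits that left out 1 library. Of the wider mitosis genes, 2 called lower became 0 with the block and 0 to 2 leaving out 1 library. For the wider replication genes, 0 called lower became 2 and 0 called higher became 1 with DESeq2, 1 was lower with voom, and 0 to 2 were lower leaving out 1 library. The cause was not tested.

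Of 585 fits of single members, 22 reversed a sign, in 8 members, all with log2 fold changes that were not called. With the replicate block, Nusap1 was 0.29, Kif20a 0.032 and Hmmr 0.0032; with voom, Mki67 was 0.044. Leaving out 1 library at a time, the ranges were -0.94 to 0.38 for Mcm3, -0.32 to 0.23 for Mcm7, -0.38 to 0.041 for Mki67, -0.032 to 0.30 for Ube2c, -0.17 to 0.56 for Kif11, -0.39 to 0.25 for Nusap1, -0.50 to 0.32 for Hmmr and -0.33 to 0.21 for Kif20a. Depth limits Mcm10 most, since its P28 values rest on 16 counts in all.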
